A study of Homo sapiens with 6 samples.

Results

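Semaphorins, plexins and neuropilins form a system of guidance ligands and their receptors. Its genes were taken from the count table as the protein-coding genes named SEMA3 to SEMA7, PLXNA to PLXND, NRP1 and NRP2, which gave 31 of the 58735 genes in the table. They comprise 20 semaphorins, 9 plexins and 2 neuropilins. The cells were UE7T-9, a line of human bone marrow mesenchymal stem cells. The 3 Control libraries were made from wild-type UE7T-9 cells and the 3 SRRM4 KO libraries from UE7T-9 cells infected with a lentiviral CRISPR vector against SRRM4, a splicing factor known from neurons. The SRRM4 KO line was grown from 1 cell per well, so it is a single clone, and the study states that loss of the protein was not complete. The study looked for factors in the penetration of decellularized bone by these cells, and the RNA-seq asks which genes differ between the line and its control. Infected cells were selected with puromycin. Effects of the knockout, of the vector and the selection, and of picking a clone cannot be told apart in this design.

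Semaphorins are secreted or membrane-bound proteins that share the sema domain. They repel or attract migrating cells and growing axons by binding plexins, whose cytoplasmic part acts on small GTPases and so on the actin skeleton and adhesion. Class 3 semaphorins are secreted, and most of them need a neuropilin as the binding partner beside a plexin A or plexin D. Classes 4, 5 and 6 span the membrane, and class 7 is anchored to it by a lipid. Neuropilins also bind vascular endothelial growth factors. In bone, these ligands act between osteoblasts, osteoclasts, nerves and vessels.

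The libraries held from 21496117 to 23868323 counts. SRRM4 itself had 0 counts in all 6 libraries, so the RNA gives no check of the knockout. Control replicate 1 stood apart, with 22403 genes counted against 20127 to 20674 in the other 5 libraries. Of the markers that define mesenchymal stem cells, NT5E (CD73) was at 342 CPM (counts scaled to library size) in Control and 490 in SRRM4 KO, ENG (CD105) at 246 and 194, and THY1 (CD90) at 144 and 26.7 CPM. The 6 listed mesenchymal markers summed to between 2163 and 2195 CPM in Control and between 2091 and 2165 in SRRM4 KO. The members of that list did not move alike: besides THY1 (log2 fold change -2.43), PDGFRB went from 692 to 157 CPM (-2.14) and CD44 from 147 to 386 CPM (1.39), both named after their values were seen. The 7 epithelial markers summed to 98.9 to 119.7 CPM in Control and 102.4 to 110.2 in SRRM4 KO, and the 6 neuronal markers to 25.8 to 32.9 and 23.5 to 27.0 CPM, with STMN2 at 0. Most of the epithelial sum was KRT18 (84.0 CPM in Control and 88.5 in SRRM4 KO) and KRT8 (24.7 and 16.4 CPM, log2 fold change -0.59). EPCAM was at 0.0463 and 0.0137 CPM. Most of the neuronal sum was SYT1 (24.7 and 22.9 CPM). The 6 endothelial markers summed to 14.1 to 16.0 CPM in Control, most of it TEK (13.7 CPM), and to 1.64 to 2.56 in SRRM4 KO, where TEK was at 0.994 and VWF at 1.02 CPM. The 6 glial markers summed to 13.5 to 15.2 CPM in Control, mostly MBP (10.4 CPM), and to 3.09 to 3.64 in SRRM4 KO, where MBP was at 0.542 CPM. Whether these differences have a part in the results below was not tested.

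The sequences shown are those upstream of 5 genes described below. SEMA3F, SEMA3D, SEMA5A and PLXNC1 fell, and SEMA3B, a neighbour of SEMA3F on chromosome 3, was higher (log2 fold change 0.51) without passing the fold threshold. Each is 150 bases, 5′ to 3′ on the strand of the gene, ending at the start of the gene as RefSeq or, where it lies further out, the deposited table gives it. The source is RefSeq, build GRCh38.p14. The windows are chr3:50267408-50267557 (plus strand) for SEMA3B, chr3:50154895-50155044 (plus) for SEMA3F, chr7:85187057-85187206 (minus) for SEMA3D, chr5:9546076-9546225 (minus) for SEMA5A and chr12:94148427-94148576 (plus) for PLXNC1. Capitals mark GC boxes (GGGCGG, or CCGCCC on the other strand), CCAAT boxes (CCAAT or ATTGG) and TATA boxes (TATAAA or TTTATA), and matches may overlap.
SEMA3B: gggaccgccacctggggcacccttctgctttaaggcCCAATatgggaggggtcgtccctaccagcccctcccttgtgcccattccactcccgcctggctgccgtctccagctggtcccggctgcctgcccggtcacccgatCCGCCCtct
SEMA3F: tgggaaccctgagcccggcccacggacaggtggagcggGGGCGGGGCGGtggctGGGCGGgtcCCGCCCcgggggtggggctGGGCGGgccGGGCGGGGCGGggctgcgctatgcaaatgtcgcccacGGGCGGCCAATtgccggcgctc
SEMA3D: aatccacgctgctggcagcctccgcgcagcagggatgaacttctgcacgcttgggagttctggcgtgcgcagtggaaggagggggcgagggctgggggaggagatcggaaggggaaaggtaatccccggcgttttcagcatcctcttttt
SEMA5A: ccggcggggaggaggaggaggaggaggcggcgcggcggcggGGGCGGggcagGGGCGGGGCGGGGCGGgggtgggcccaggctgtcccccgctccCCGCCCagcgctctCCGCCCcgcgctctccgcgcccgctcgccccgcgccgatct
PLXNC1: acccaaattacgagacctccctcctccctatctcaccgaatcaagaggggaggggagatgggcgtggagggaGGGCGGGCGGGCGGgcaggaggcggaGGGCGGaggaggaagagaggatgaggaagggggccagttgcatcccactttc
The SEMA3F window held 8 GC boxes and 1 CCAAT box, the SEMA5A window 6 GC boxes, the PLXNC1 window 4, and the SEMA3B window 1 GC box and 1 CCAAT box. None of these letters was found in the SEMA3D window. Of the 31 genes, 27 had an entry in the RefSeq promoter table. NRP1, SEMA3A, SEMA6A and SEMA6B had none. A GC box was found in 18 of the 27 windows (66.7%), against 36.8% of the 35116 windows of the whole table, in which a gene can have several starts. For each of the 27 genes the start nearest the deposited gene start was used, and its window could be shifted outwards. Neither was done for the whole table, so the shares are of unlike windows. For PLXNA4 and SEMA4B the start used lay 72218 and 24316 bases from the deposited one. A CCAAT box was found in 6 of 27 (22.2%, against 23.5%), the E-box CACGTG in 3 (11.1%, against 4.57%), TGACG or its reverse complement CGTCA in 3 (11.1%, against 15.4%) and a TATA box in 0 of 27 (against 6.71%). The median GC content was 68.7% in these 27 windows and 60.0% in all. These matches describe letters and are not evidence of binding.

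Of the 31 genes, 30 had at least 1 count and 29 were tested. SEMA3A and SEMA4B rose and SEMA3D, SEMA3F, SEMA5A, SEMA6A and SEMA6D fell in SRRM4 KO, while of the receptors NRP1 rose and PLXNC1 and PLXNA4 fell. A gene was called, and is said to have risen or fallen, when its adjusted p was under 0.05 by edgeR's quasi-likelihood test and its log2 fold change (SRRM4 KO over Control) was beyond 1. By that rule 3 of 29 were called higher (10.3%) and 7 lower (24.1%), while 5.45% of all 15341 tested genes were called higher and 7.14% lower (12.6% in either direction). With the adjusted p alone, 9 were higher and 14 lower, against 20.7% and 20.9% of all tested genes. The median log2 fold change was 0.12 over the 18 tested semaphorins and -0.35 over the 11 receptors, beside -0.01 over all tested genes. The counts of the groups did not overlap, after scaling, for 22 of 29 genes, against 51.8% of all tested genes. Without Control replicate 1 there were 3 called higher and 6 lower: SEMA6A (adjusted p = 0.0517) was no longer called, PLXNA4 was not tested, and SEMA6B was called (-1.02). In bulk RNA, fewer cells of a kind and less RNA per cell cannot be told apart.

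**Figure D1:**
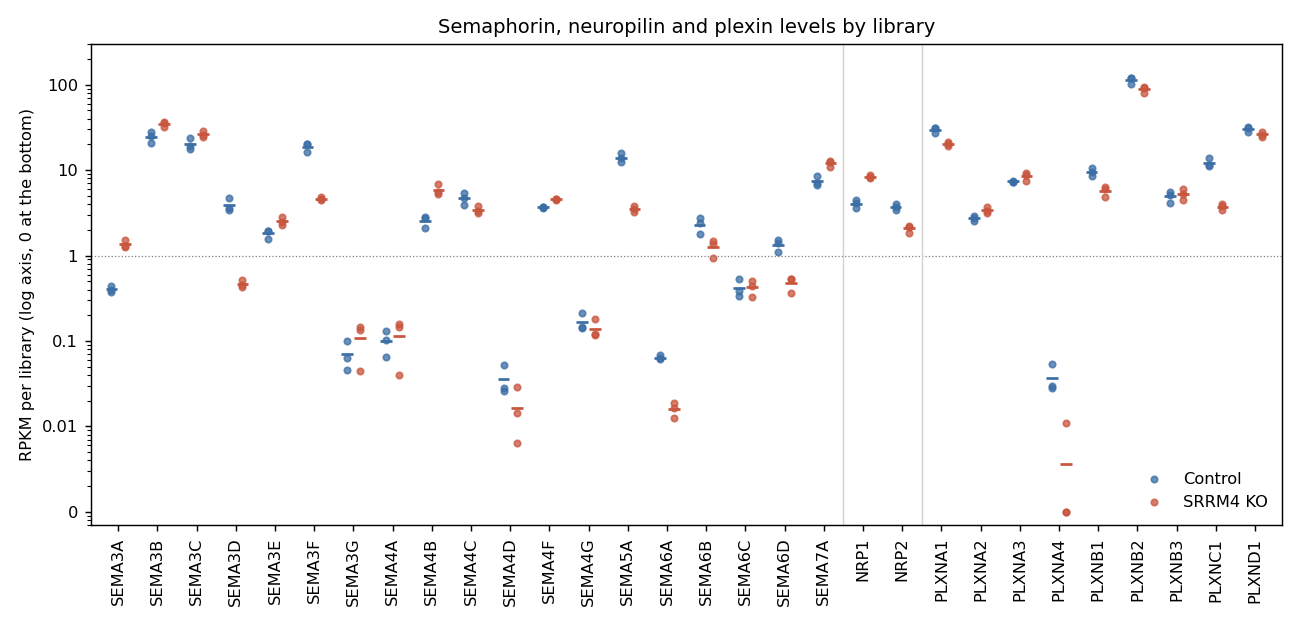
RPKM (counts scaled to gene length and library size, log axis, 0 drawn at the bottom) of the 30 genes with a count, with 3 Control libraries (blue) and 3 SRRM4 KO libraries (red) as points and the group mean as a bar. Grey lines part semaphorins, neuropilins and plexins, and the dotted line is at 1 RPKM. PLXNB2 was highest in both groups, and SEMA3D, SEMA3F, SEMA5A and PLXNC1 show the widest gaps among genes above 1 RPKM in Control.

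To compare levels between genes, counts were divided by the length of each gene (RPKM). In Control cells PLXNB2 was highest at 113 ± 8.96 RPKM (SD, n = 3), apart from all others. PLXND1 (30.5), PLXNA1 (29.6), SEMA3B (24.5), SEMA3C (20.1) and SEMA3F (18.9 RPKM) followed, and neighbours in that order overlapped in their libraries. In SRRM4 KO cells PLXNB2 (88.9 ± 7.07 RPKM) was followed by SEMA3B (34.8), SEMA3C (26.3), PLXND1 (26.2) and PLXNA1 (20.4). There SEMA3B was above SEMA3C in every library, while SEMA3C and PLXND1 overlapped. SEMA3F moved from rank 6 to rank 12 in the order, and SEMA7A from rank 10 to rank 6. These ranks are of means. In Control SEMA7A overlapped PLXNA3 at rank 11. In SRRM4 KO SEMA3F overlapped PLXNB3 at rank 11 and SEMA4F at rank 13. At a level of 1 RPKM or more, 12 semaphorins, 8 plexins and both neuropilins were present in Control, and 11, 8 and both in SRRM4 KO. SEMA3A crossed this level upwards, and SEMA3D and SEMA6D crossed it downwards.

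**Figure D2:**
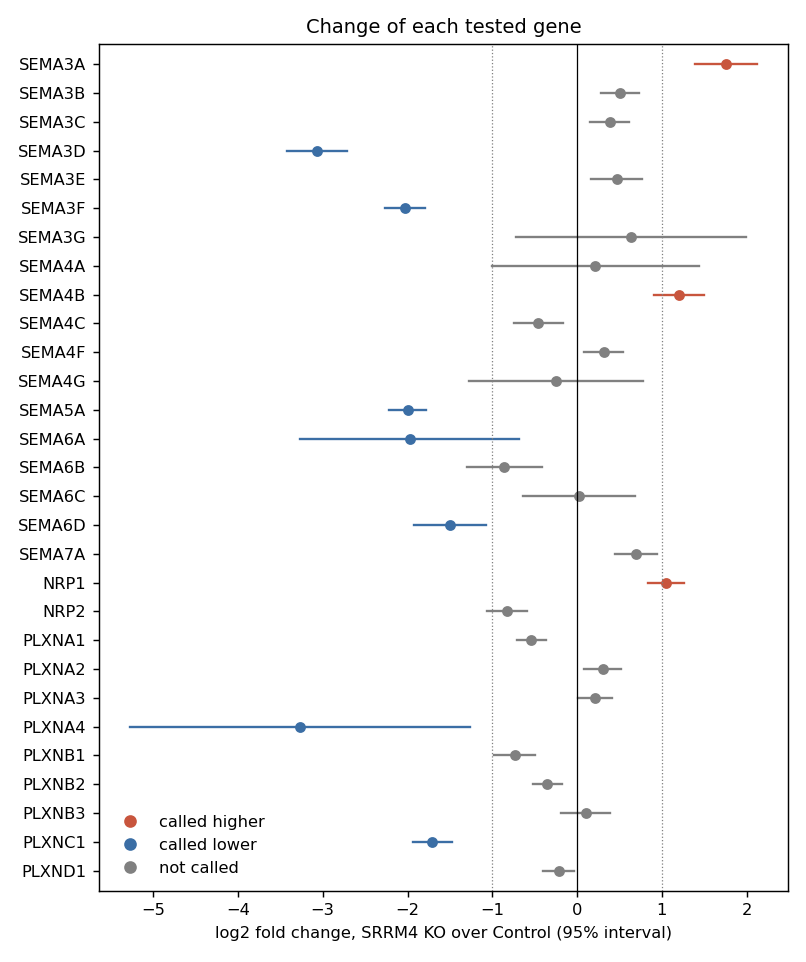
log2 fold change of each of the 29 tested genes, SRRM4 KO over Control, with its 95% interval from edgeR. Dotted lines mark the threshold of 1 in each direction; red and blue points were called higher and lower, grey points were not called. The intervals of SEMA3D, SEMA3F, SEMA5A, SEMA6D, PLXNC1 and PLXNA4 lie wholly below -1 and that of SEMA3A wholly above 1. Genes of low counts, such as PLXNA4, SEMA6A, SEMA3G and SEMA4A, have wide intervals.

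The neuropilins moved apart. NRP1 (chromosome 10, 33177492 to 33336262, minus strand), the co-receptor for SEMA3A and a binding partner of VEGFA, had 1129, 884 and 1049 counts in Control and 2107, 2489 and 2053 in SRRM4 KO. Each SRRM4 KO library was above each Control library. Its level rose from 4.05 ± 0.481 to 8.39 ± 0.418 RPKM (log2 fold change 1.05, SE 0.101, adjusted p = 8.12e-07), and without Control replicate 2 the log2 fold change was 0.96, under the threshold. NRP2 (chromosome 2, 205681990 to 205798133, plus strand), the co-receptor for SEMA3F and SEMA3G, had 1198, 1103 and 1056 counts in Control and 696, 735 and 561 in SRRM4 KO. The groups did not overlap, and its level was lower in SRRM4 KO (3.69 and 2.09 RPKM, log2 fold change -0.82, SE 0.111, adjusted p = 2.52e-05) but did not reach the fold threshold. The 54 tested genes of other families within 5 Mb of NRP2 had a median log2 fold change of -0.35, and the 34 around NRP1 one of 0.02. NRP1 made up 53.2%, 49.1% and 54.5% of neuropilin RPKM in the Control libraries and 78.5%, 80.3% and 81.5% in those of SRRM4 KO. The ratio of NRP1 to NRP2 thus went from 1.10 ± 0.120 to 4.05 ± 0.382 (SD, n = 3).

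Among class 3 ligands, SEMA3A, a repellent of axons that signals through NRP1 with plexin A, rose most. It lies on chromosome 7 from 83955777 to 84492724 (minus strand) and had 76, 79 and 92 counts in Control and 264, 292 and 317 in SRRM4 KO. All SRRM4 KO libraries were above all Control libraries, and the level went from 0.402 ± 0.0342 to 1.36 ± 0.153 RPKM (log2 fold change 1.76, SE 0.172, adjusted p = 9.23e-07). It stayed one of the rarer class 3 transcripts, at 1.94% of class 3 RPKM in SRRM4 KO.

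SEMA3B, SEMA3C and SEMA3E were higher in SRRM4 KO below the fold threshold. SEMA3B, a ligand of both neuropilins first studied as a candidate tumour suppressor, had 2573, 3115 and 3577 counts in Control and 4569, 5098 and 4113 in SRRM4 KO (24.5 and 34.8 RPKM, log2 fold change 0.51, adjusted p = 0.00105). SEMA3C, which guides neural crest cells of the heart, had 3224, 2561 and 2470 counts and then 3385, 3905 and 3995 (20.1 and 26.3 RPKM, 0.38, adjusted p = 0.0105). Its highest Control library, replicate 1, came close to the lowest SRRM4 KO library, at 23.7 and 24.2 RPKM. SEMA3E, which binds PLXND1 without a neuropilin, had 355, 353 and 296 counts and then 461, 463 and 527 (1.82 and 2.52 RPKM, 0.47, adjusted p = 0.0138). Relative to the median of chromosome 7 (-0.25), on which both lie, SEMA3C was at 0.64 and SEMA3E at 0.72. Without Control replicate 3 or SRRM4 KO replicate 3 the adjusted p passed 0.05 for SEMA3C (0.0686 and 0.0642) and for SEMA3E (0.0708 and 0.0799).

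SEMA3D and SEMA3F fell. SEMA3D, a guidance cue for vessel and heart cells (chromosome 7, 84995553 to 85186855, minus strand), had 817, 635 and 611 counts in Control and 76, 88 and 93 in SRRM4 KO. The lowest Control library was far above the highest SRRM4 KO library, and the level fell from 3.91 ± 0.676 to 0.465 ± 0.0526 RPKM, 8.40-fold lower (log2 fold change -3.07, SE 0.166, adjusted p = 1.66e-09). SEMA3F, which signals through NRP2 and plexin A (chromosome 3, 50155045 to 50189075, plus strand), had 1697, 2089 and 2189 counts in Control and 499, 524 and 510 in SRRM4 KO. The SRRM4 KO libraries lay close together and all below the Control libraries, at 4.63 ± 0.172 against 18.9 ± 2.30 RPKM, 4.07-fold lower (-2.03, SE 0.109, adjusted p = 1.62e-09). Both were called lower whichever single library was omitted, with log2 fold changes from -3.17 to -2.92 for SEMA3D and from -2.13 to -1.97 for SEMA3F. An antisense gene, SEMA3F-AS1, shares 110 bases with SEMA3F and held 3 to 19 counts, and reads of the pair cannot be told apart in libraries without strand.

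The class 3 total did not follow these changes. Summed RPKM of the 7 class 3 genes was 67.6, 70.1 and 71.3 in Control and 68.6, 70.5 and 71.2 in SRRM4 KO, so the libraries overlapped and the means, 69.7 ± 1.86 and 70.1 ± 1.33, differed by less than the spread between replicates. The mix within that total differed. SEMA3F made up 27.1% ± 2.65 of it in Control and 6.61% ± 0.246 in SRRM4 KO (SD, n = 3), and SEMA3D went from 5.63% to 0.663%. SEMA3B took 35.1% in Control and 49.6% in SRRM4 KO. SEMA3C took 24.8% to 35.1% in Control and 35.3% to 40.7% in SRRM4 KO. Together they made up 41.9% ± 0.826 of all semaphorin RPKM in Control and 59.8% ± 1.11 in SRRM4 KO (SD, n = 3). The ratio of SEMA3B to SEMA3F was 1.29 ± 0.0639 in Control and 7.52 ± 0.707 in SRRM4 KO, and that of SEMA3A to SEMA3D 0.106 ± 0.0248 and 2.93 ± 0.0672. These sums and ratios were given no test.

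**Figure D3:**
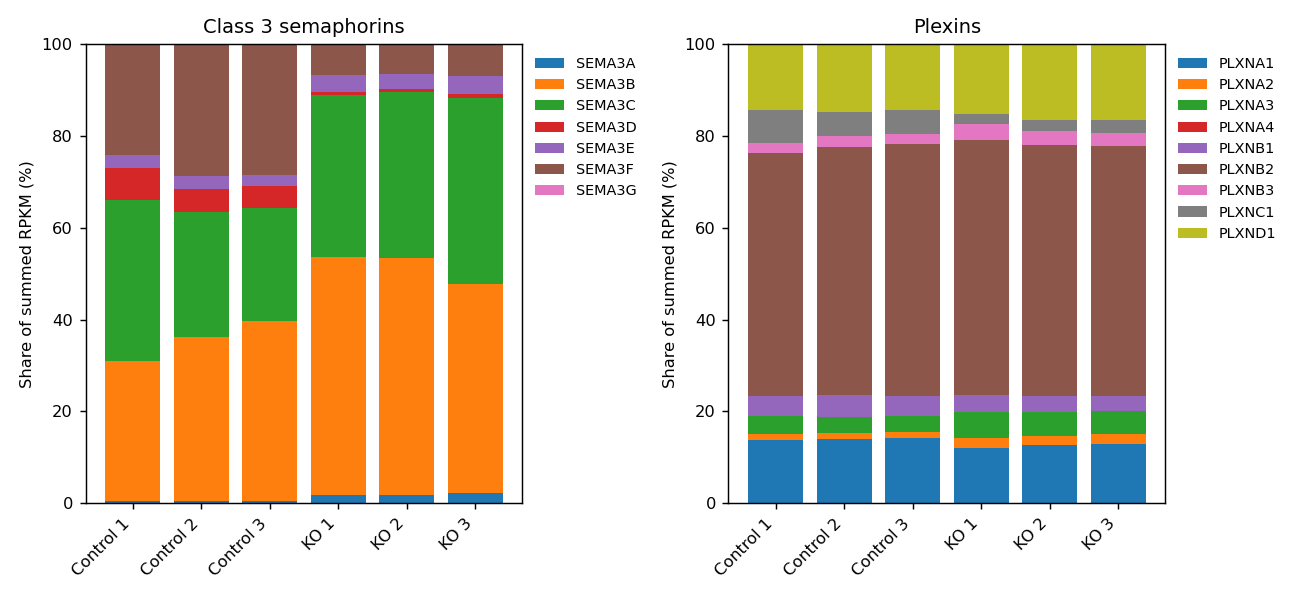
Share of summed RPKM (%) that each gene took, for class 3 semaphorins (left) and plexins (right), with one stacked bar for each of the 3 Control and 3 SRRM4 KO libraries. In the left panel SEMA3F narrows from a mean of 27.1% to 6.61% and SEMA3D almost vanishes, while in the right panel PLXNB2 takes 53.9% in Control and 54.8% in SRRM4 KO and PLXNC1 narrows from 5.85% to 2.32%.

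Several class 3 genes lie near each other in the genome, with values in opposite directions. On chromosome 7, SEMA3E, SEMA3A and SEMA3D follow each other with 306.7 kb between the first pair and 502.8 kb between the second, and with 0 other protein-coding genes between them. SEMA3A rose and SEMA3D fell, and the 19 tested genes of other families within 5 Mb of either end had a median log2 fold change of -0.06 around SEMA3A and -0.0045 around SEMA3D. These medians hide wide spread: 2 of them were called higher and 4 lower around SEMA3A, and 3 higher and 4 lower around SEMA3D, beside 12.6% of all tested genes called in either direction. On chromosome 3, SEMA3F ends 78.5 kb before SEMA3B begins, with 3 protein-coding genes between. SEMA3F fell while SEMA3B was higher, and the genes within 5 Mb of each had a median of 0.09. SEMA3G, a further 2155.5 kb along, was at 0.070 RPKM in Control and 0.109 in SRRM4 KO and did not pass the test (adjusted p = 0.455).

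**Figure D4:**
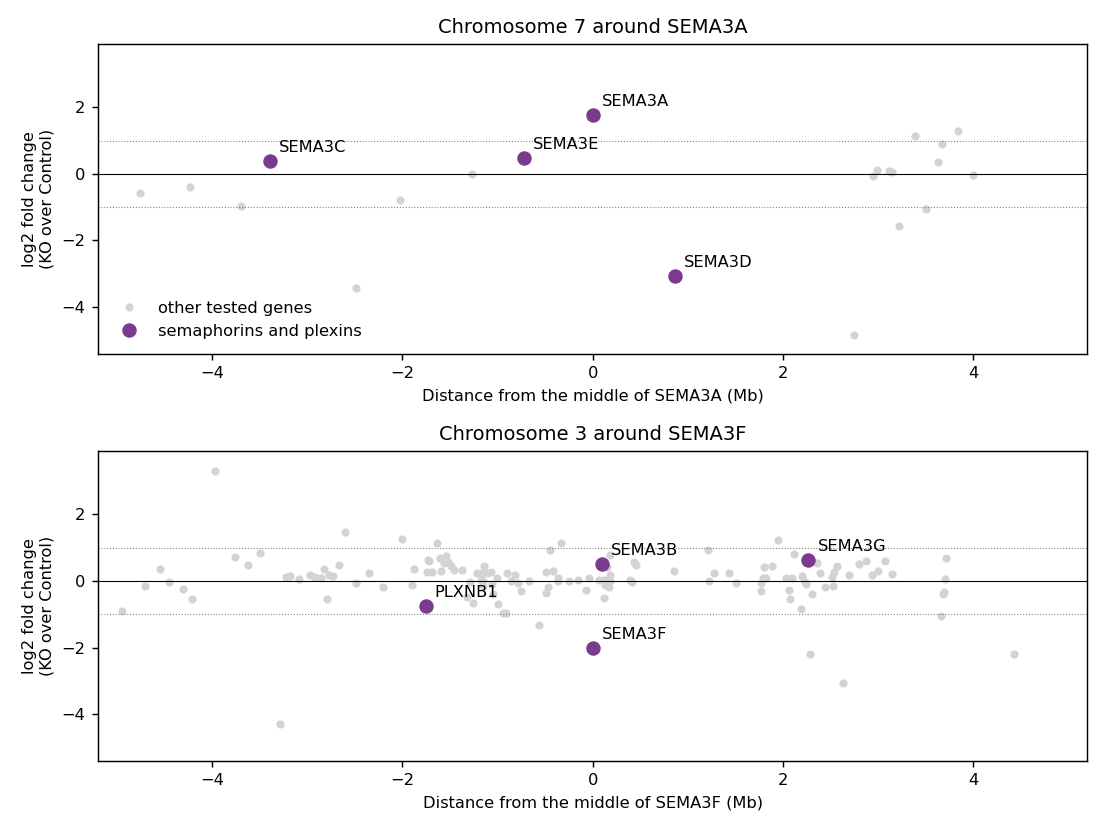
log2 fold change (SRRM4 KO over Control) of tested genes against distance in Mb from the middle of SEMA3A on chromosome 7 (upper panel) and of SEMA3F on chromosome 3 (lower panel). Purple points are semaphorins and plexins, grey points the 18 and 139 other tested genes, and dotted lines mark the threshold of 1. SEMA3A at 1.76 lies next to SEMA3D at -3.07, and SEMA3F at -2.03 lies 78.5 kb from SEMA3B at 0.51.

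Of the membrane-bound ligands, SEMA4B rose, and SEMA5A, SEMA6A and SEMA6D fell. SEMA4B (chromosome 15, 90160604 to 90229679, plus strand), a class 4 semaphorin that spans the membrane, had 320, 432 and 425 counts in Control and 872, 1161 and 816 in SRRM4 KO. The groups did not overlap, and it rose from 2.56 ± 0.401 to 5.89 ± 0.801 RPKM (log2 fold change 1.20, SE 0.138, adjusted p = 5.17e-06). SEMA4C, a ligand of PLXNB2, was lower (4.70 and 3.43 RPKM, -0.46, adjusted p = 0.0142) and SEMA4F higher (3.67 and 4.56 RPKM, 0.32, adjusted p = 0.0286), both under the fold threshold. The adjusted p of SEMA4C passed 0.05 without Control replicate 2, SRRM4 KO replicate 2 or SRRM4 KO replicate 3 (up to 0.0825). That of SEMA4F passed 0.05 in every fit with one library omitted except the one without Control replicate 1 (up to 0.106), and was 0.0686 with the replicate number as a block. Class 4 summed to 11.2 ± 1.16 RPKM in Control and 14.2 ± 0.859 in SRRM4 KO. SEMA7A (chromosome 15, 74409289 to 74433958, minus strand), which binds PLXNC1 and beta-1 integrin, had 554, 581 and 717 counts in Control and 1081, 1162 and 902 in SRRM4 KO. Every SRRM4 KO library was above every Control library, at 12.0 ± 1.09 against 7.42 ± 0.912 RPKM (0.70, SE 0.117, adjusted p = 0.000201), below the fold threshold.

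SEMA5A (chromosome 5, 9035026 to 9546075, minus strand), which carries thrombospondin repeats beside its sema domain, had the highest mean count of the ligands in Control (4116, 3626 and 3368 counts). It had 1013, 1034 and 873 in SRRM4 KO. The groups lay far apart, and the level fell from 14.0 ± 1.61 to 3.52 ± 0.240 RPKM, 3.99-fold lower (-2.00, SE 0.102, adjusted p = 9.23e-10), with values from -2.08 to -1.91 when one library was left out. SEMA6D (chromosome 15, 47184101 to 47774223, plus strand), a membrane ligand of PLXNA1, had 283, 204 and 266 counts in Control and 69, 112 and 99 in SRRM4 KO. It fell from 1.34 ± 0.214 to 0.475 ± 0.0981 RPKM without overlap (-1.50, SE 0.199, adjusted p = 2.29e-05). SEMA6A, a ligand of PLXNA2 and PLXNA4, was rare. Its counts were 15, 16 and 15 in Control, then 4, 5 and 3 in SRRM4 KO. It was called (-1.98, SE 0.606, adjusted p = 0.0162), but its adjusted p was from 0.0461 to 0.0673 when one library was left out and passed 0.05 without Control replicate 1, Control replicate 2, SRRM4 KO replicate 1 or SRRM4 KO replicate 3. SEMA6A-AS1, on the other strand, shares 268 bases (2.45% of the length of SEMA6A). It held 4, 8 and 0 counts in Control and 2, 3 and 0 in SRRM4 KO, with no strand to part the reads. SEMA6B had 170, 230 and 268 counts in Control and 136, 159 and 92 in SRRM4 KO, and was lower below the fold threshold (2.31 and 1.27 RPKM, -0.86, adjusted p = 0.00386). Class 6 summed to 4.13 ± 0.375 RPKM in Control and 2.18 ± 0.337 in SRRM4 KO.

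Among the plexins, PLXNC1 fell and the abundant members were lower by less. PLXNC1 (chromosome 12, 94148723 to 94307675, plus strand), the receptor for SEMA7A, had 2991, 2460 and 2456 counts in Control and 753, 911 and 876 in SRRM4 KO. All SRRM4 KO libraries were below all Control libraries, and the level fell from 12.2 ± 1.53 to 3.74 ± 0.306 RPKM, 3.26-fold lower (-1.71, SE 0.108, adjusted p = 8.75e-09). CEP83, on the other strand, shares 177 bases (1.79% of the gene's length) and held 203 to 267 counts, with no strand to part the reads. The 42 tested genes around PLXNC1 had a median of 0.12.

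PLXNA4, a neuronal receptor of SEMA3A and SEMA6A, was near the limit of detection. Its counts were 19, 10 and 11 in Control, then 4, 0 and 0 in SRRM4 KO. It was called (-3.26, SE 0.940, adjusted p = 0.0113). The size of this value depends on the prior count, since 2 of the SRRM4 KO libraries were at 0. Its adjusted p was 0.0542 without SRRM4 KO replicate 2 and 0.0514 without SRRM4 KO replicate 3, and without SRRM4 KO replicate 1, which held all counts of its group, it was at least 4.61-fold lower (against 3 counts per library).

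PLXNA1, a receptor that pairs with neuropilins, had 6413, 7295 and 7548 counts in Control and 4966, 5741 and 4645 in SRRM4 KO (29.6 and 20.4 RPKM, -0.54, adjusted p = 8.90e-05). PLXNB1, the receptor for SEMA4D, had 1819, 2224 and 2067 and then 1359, 1441 and 1046 (9.58 and 5.74 RPKM, -0.74, adjusted p = 7.54e-05). PLXNB2, the receptor for SEMA4C, had 16220, 18532 and 19233 and then 15077, 16373 and 12890 (113 and 88.9 RPKM, -0.35, adjusted p = 0.00256). The scaled values of these 3 genes did not overlap between groups. PLXNB2 lies on chromosome 22, whose tested genes had a median of -0.26.

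PLXND1, the receptor for SEMA3E, was lower by little (30.5 and 26.2 RPKM, -0.22, adjusted p = 0.0486) and its groups overlapped. Its adjusted p passed 0.05 without Control replicate 2, Control replicate 3, SRRM4 KO replicate 1 or SRRM4 KO replicate 3 (up to 0.180) and was 0.0720 with the replicate number as a block. PLXNA2 was higher (2.76 and 3.40 RPKM, 0.30, adjusted p = 0.0269), but its adjusted p passed 0.05 without Control replicate 3, SRRM4 KO replicate 1 or SRRM4 KO replicate 2 (up to 0.154) and was 0.0529 with the block. PLXNA3 (7.39 and 8.53 RPKM, 0.21, adjusted p = 0.0916) and PLXNB3 (4.93 and 5.29 RPKM, 0.10, adjusted p = 0.592) did not pass the test, and their 95% intervals ran from 0.01 to 0.41 and from -0.19 to 0.39. Both lie on chromosome X, 678.9 kb apart, where the median of tested genes was 0.32, and relative to that median both were lower, at -0.11 and -0.22. Of the length of PLXNB3, 20.4% is shared with SRPK3 on the same strand, which held 7 to 49 counts. Summed over the 9 plexins, RPKM was 195, 220 and 217 in Control and 168, 170 and 149 in SRRM4 KO.

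The remaining genes were rare. SEMA3G, SEMA4A, SEMA4G and SEMA6C were tested and not called. They held 5 to 67 counts in any library, and their groups overlapped. SEMA4D, a ligand of PLXNB1 that restrains bone formation, had 8, 16 and 9 counts in Control and 2, 5 and 9 in SRRM4 KO, too few for the test. SEMA5B had 0 counts in all libraries, which allows up to 3 counts in each, or 0.126 to 0.140 CPM, for counting error only. SEMA4G shares 22.3% of its length with MRPL43 on the other strand, which held 765 to 1253 counts, so its 14 to 24 counts are uncertain.

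To pair ligands with receptors, 32 pairs known from the biology of these proteins were listed, of semaphorins with a neuropilin or a plexin. SEMA4B and SEMA4F had no partner in the list. Both partners were at 1 RPKM or more for 16 pairs in Control, for 16 in SRRM4 KO and for 13 in both. The pairs of SEMA3A with NRP1, PLXNA1 and PLXNA2 reached that level in SRRM4 KO and not in Control. The pairs of SEMA3D with NRP1 and PLXND1 and of SEMA6D with PLXNA1 reached it in Control and not in SRRM4 KO.

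In 2 pairs both partners were called in the same direction. SEMA3A and NRP1 both rose, from 0.402 and 4.05 RPKM to 1.36 and 8.39, and SEMA6A and PLXNA4 both fell, each from under 0.1 RPKM. In 2 pairs they were called in opposite directions, SEMA3D (lower) with NRP1 (higher) and SEMA3A (higher) with PLXNA4 (lower). These 4 pairs rest on calls that other fits lose. Without Control replicate 2, NRP1 was at 0.96, under the fold threshold, so that neither of its pairs remained. SEMA6A and PLXNA4 were not both called in any fit with one library omitted, and the pair of SEMA3A and PLXNA4 remained only without Control replicate 2 or SRRM4 KO replicate 1. With glmTreat, which tests against a log2 fold change of 1, none of the 4 pairs remained. Only one partner was called in 14 pairs and neither in the other 14. Among the former, SEMA3F fell while its partners NRP2 (-0.82) and PLXNA3 (0.21) were not called, and SEMA5A fell while PLXNB3 (0.10), PLXNA1 (-0.54) and PLXNA3 were not. SEMA7A was higher (0.70) and its receptor PLXNC1 fell, so the ratio of their RPKM was 0.482, 0.615 and 0.760 in Control and 3.73, 3.32 and 2.68 in SRRM4 KO, without overlap. SEMA4C (-0.46) and PLXNB2 (-0.35) were both lower without passing the fold threshold, and relative to the medians of their chromosomes (-0.25 and -0.26) they were at -0.21 and -0.093. Since genes recur in several pairs, the pairs are not independent.

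**Figure D5:**
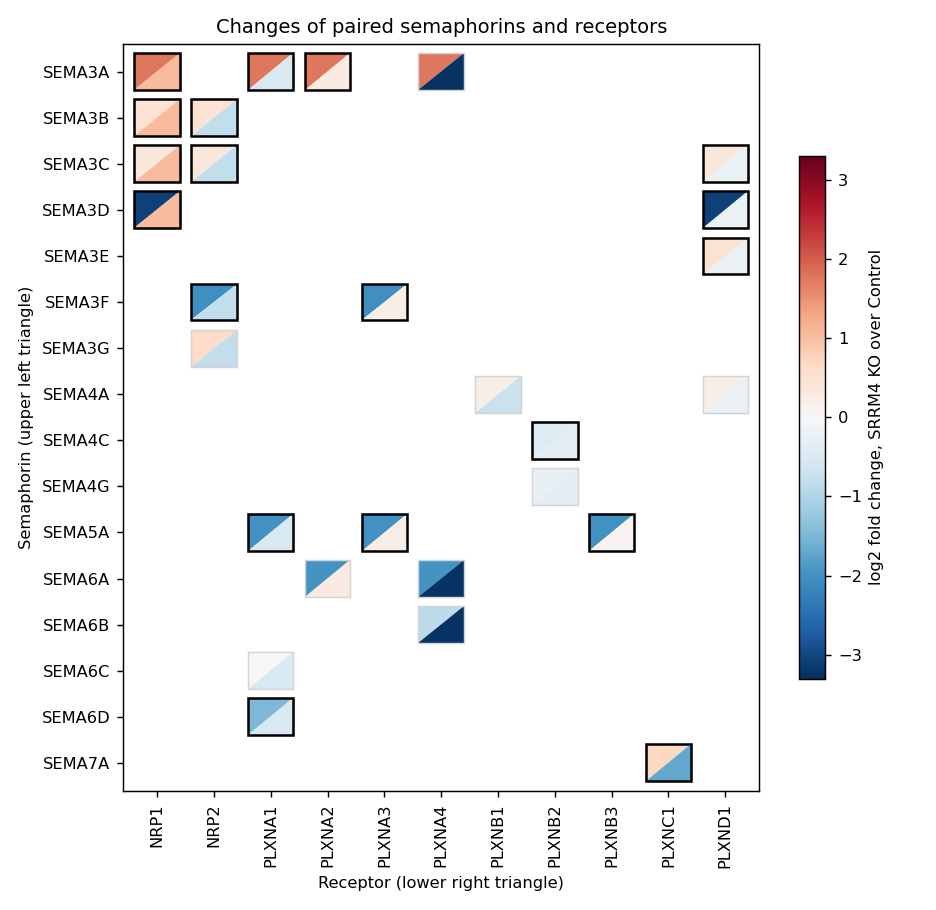
log2 fold change (SRRM4 KO over Control, colour scale) of the ligand (upper left triangle) and the receptor (lower right triangle) for the 28 listed pairs in which both were tested, with semaphorins in rows and receptors in columns. A black frame marks the 19 pairs in which both were at 1 RPKM or more in at least 1 group. SEMA3A with NRP1 is red in both triangles, SEMA7A with PLXNC1 is red over blue, and SEMA3F and SEMA5A are blue beside paler receptors.

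Other genes of the pathway were taken from lists made by hand. Of 9 other receptors and co-receptors of semaphorins, 6 were tested, 0 were called higher and 2 lower, beside 5.45% and 7.14% of all tested genes. L1CAM, an adhesion molecule that joins NRP1 in the SEMA3A receptor, had 372, 495 and 526 counts in Control and 48, 45 and 23 in SRRM4 KO. It fell from 21.2 to 1.68 CPM without overlap (-3.65, SE 0.226, adjusted p = 7.36e-09). NRCAM, a related molecule linked to NRP2, fell from 7.27 to 2.43 CPM (-1.58, SE 0.235, adjusted p = 6.76e-05). ITGB1, the beta-1 integrin that SEMA7A binds and the best counted gene of the list, was at 1361 and 1526 CPM (0.16, adjusted p = 0.0757).

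Of 8 ligands and receptors of the VEGF system, which share neuropilins, 6 were tested, 0 were called higher and 2 lower, beside the same 5.45% and 7.14%. FLT1 (VEGF receptor 1) had 1025, 981 and 1002 counts in Control and 16, 32 and 15 in SRRM4 KO, a fall from 45.9 to 0.905 CPM (-5.64, SE 0.193, adjusted p = 1.85e-11). KDR (VEGF receptor 2) fell from 9.42 to 3.11 CPM (-1.60, SE 0.192, adjusted p = 8.09e-06). The best counted gene, VEGFB, was at 117 and 102 CPM (-0.19, adjusted p = 0.143). FLT1 and KDR, like TEK, are best known from endothelial cells. Of the other listed markers of these cells, VWF had 21, 46 and 18 counts in Control and 19, 28 and 23 in SRRM4 KO (1.02 CPM), EMCN was at 0.123 and 0.0577, and PECAM1, CDH5 and CLDN5 stayed under 0.1 CPM on average in both groups.

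Of 36 genes that act downstream of plexins, 32 were tested, 1 was called higher and 1 lower, beside 5.45% and 7.14% of all tested genes. With the adjusted p alone 5 were higher and 12 lower, beside 20.7% and 20.9%. Upper-quartile normalization, no filter on low counts, at least 10 counts in every library and protein-coding genes only each gave 2 lower. With one library omitted, 3 were called lower without Control replicate 2 or SRRM4 KO replicate 2 and 2 in the other 4 fits, and 0 were called higher without Control replicate 2 or SRRM4 KO replicate 1. TIAM1, an exchange factor that activates RAC1, rose from 12.6 to 26.0 CPM (1.05, SE 0.136, adjusted p = 1.79e-05), but its value was 0.97 without Control replicate 2 and 0.99 without SRRM4 KO replicate 1. MICAL1, an enzyme that oxidises actin behind plexin A, had 1478, 1944 and 1782 counts in Control and 663, 649 and 553 in SRRM4 KO, and fell from 79.4 to 27.2 CPM (-1.55, SE 0.117, adjusted p = 6.09e-08). RHOA, the best counted gene, was at 843 and 812 CPM (-0.05, adjusted p = 0.550). DPYSL3, a collapsin response mediator named here after its values were seen, lay at the threshold, at 158 and 78.9 CPM (-0.996, adjusted p = 1.87e-07, between -1.05 and -0.97 when one library was left out).

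Of 8 proteases known to cut semaphorins or their receptors, all 8 were tested, 0 were called higher and 2 lower, beside 5.45% and 7.14% of all tested genes. They were the proprotein convertases PCSK5 (13.7 and 5.78 CPM, -1.25, SE 0.166, adjusted p = 2.26e-05) and PCSK6 (2.43 and 0.373 CPM, -2.67, SE 0.454, adjusted p = 0.000227). PCSK6 had 7, 13 and 6 counts in SRRM4 KO. With at least 10 counts in every library it was not tested, and of the 2 only PCSK5 (-1.26) was called. FURIN, the convertase that processes class 3 semaphorins, was named after its values were seen. It was higher below the fold threshold, at 161 and 243 CPM (0.60, adjusted p = 0.000523). MMP14, the best counted gene of the list, was lower at 1371 and 860 CPM (-0.67, adjusted p = 1.05e-05).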

How the data were processed

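RNA of 3 Control and 3 SRRM4 KO libraries of UE7T-9 was measured by non-stranded mRNA-seq. The authors deposited raw counts per gene, without normalization, with gene IDs, coordinates and lengths. The submitters' processing notes name HISAT2 2.0.5, featureCounts 1.5.0-p3 and DESeq2. The genome build is not given in the sources used here. All 58735 IDs, starts and ends matched GENCODE release 29 (GRCh38), and the lengths of the 31 genes were the union of its exons.

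Groups and replicates were taken from the sample titles. Counts were tested with edgeR 4.0.16 (R 4.3.3) after TMM normalization and filterByExpr, with the quasi-likelihood test, a prior count of 0.125 and Benjamini-Hochberg adjustment over 15341 genes. The study states in general that experiments were done at least 3 times, and the labels do not say that these libraries came from separate cultures. The p-values then measure only the spread between these libraries, which may be technical. The SE was taken from the fold change and the F statistic. CPM and RPKM used TMM-scaled library sizes, and RPKM the deposited gene lengths. Levels, sums, shares and pairs were given no test.

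The genes, lists and pairs were chosen with earlier results of these data known. Called genes and those of at least 1 RPKM in a group were described, and of each pathway list at most 3 called genes in each direction and the best counted gene. The procedures were tested on simulated counts. The alternatives were other normalizations and filters, fits with a replicate block or with one library omitted, glmTreat, DESeq2 1.42.0, no fold threshold, protein-coding genes only and chromosome centring. Reads that fit several genes may be assigned wrongly, which bears on overlapping genes. The result of 1 marker list is not reported here.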

Additional observations from a re-analysis of the deposited data

How the results depend on the processing

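DESeq2's size factors, the DESeq2 Wald test, upper-quartile normalization, protein-coding genes only and the replicate block all gave 3 semaphorin, plexin and neuropilin genes called higher and 7 lower, the values reported. Of the genes downstream of plexins, upper-quartile normalization and protein-coding genes only gave 2 lower in place of 1. With a test against a log2 fold change of 1 (glmTreat), 1 was called higher, SEMA3A, and 5 lower, with NRP1, SEMA4B, PLXNA4 and SEMA6A lost. Of the pathway genes, TIAM1 and PCSK5 (adjusted p = 0.279) were also lost, which left 1 protease lower. With no fold threshold, 9 were higher and 14 lower. Without a filter on low counts 6 were lower, as SEMA6A had an adjusted p of 0.0767 by edgeR's quasi-likelihood test, and that of SEMA4F was 0.0698. With at least 10 counts in every library 25 genes were tested and 5 were lower, since PLXNA4 and SEMA6A were not tested. Leaving out one library gave 2 to 3 higher and 5 to 6 lower. PLXNA4 was not tested without Control replicate 1 or Control replicate 3. The replicate number as a block changed no call that also needs the fold threshold, but PLXNA2, SEMA4F and PLXND1 then had adjusted p of 0.0529, 0.0686 and 0.0720. The correlations of same-numbered libraries were -0.0546, 0.0831 and -0.0529, so the numbers were not taken to pair the samples.

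Signs turned only for genes that were not called. With one library left out, PLXNB3 ran from -0.019 to 0.199 (negative without Control replicate 1 or SRRM4 KO replicate 1), SEMA4A from -0.091 to 0.61 (negative without Control replicate 3, SRRM4 KO replicate 2 or SRRM4 KO replicate 3) and SEMA6C from -0.13 to 0.23 (negative without Control replicate 2, Control replicate 3, SRRM4 KO replicate 1 or SRRM4 KO replicate 2). With upper-quartile normalization SEMA6C was at -0.010. The cause was not tested. Centring each chromosome on its median turned no called gene but moved 12 of the 29 by more than the spread between replicates, among them SEMA3C to 0.64, SEMA3E to 0.72, SEMA4F to 0.56, NRP2 to -0.58 and SEMA4C to -0.21. Depth limits SEMA3G, SEMA4D, SEMA5B, SEMA6A and PLXNA4, for which under 20 counts per library leave changes undetectable or imprecise.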
